A study of Mus musculus with 10 samples.

Results

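The MHC class II genes and Ciita were followed here as a set of 10 genes, chosen by name from the 55487 distinct genes of a mouse RNA-seq count table. The set holds the classical chains H2-Aa, H2-Ab1 and H2-Eb1, the peptide exchange chains H2-DMa, H2-DMb1 and H2-DMb2, the H2-Oa and H2-Ob chains that restrain them, the invariant chain Cd74, and Ciita. All 10 passed the filter on low counts and were tested. RNA came from the RPE/choroid complex, the retinal pigment epithelium together with the vascular layer behind it. The 5 ADQ samples came from iDTR mice with adiponectin-Cre, in which the adiponectin promoter turns on a diphtheria toxin receptor in fat cells of any site, and the mice were given diphtheria toxin into the peritoneum. For mice with Cre, the toxin is described as daily over 7 weeks. The 5 control samples came from iDTR mice without Cre that were also given the toxin, for a time that their labels do not state. The iDTR allele is a Cre-dependent HBEGF gene at ROSA26 on C57BL/6, and no age is stated. The labels do not say that each sample is its own animal, and the p-values rest on whatever spread these samples hold, technical or not.

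MHC class II molecules display peptides from endocytosed proteins to CD4+ T cells. An alpha and a beta chain are assembled on the invariant chain in the endoplasmic reticulum and travel to endosomes, where proteases trim the invariant chain and H2-DM exchanges its last fragment for a peptide, a step that H2-O inhibits. Ciita, a co-activator that binds no DNA itself, is recruited to the class II promoters by factors sitting on the X and Y boxes, and interferon-gamma is its best known inducer outside dendritic cells and B cells.

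These promoter elements can be read in the RefSeq promoter windows (GRCm38.p6, from 250 bases before to 50 bases after a start site), which hold 7 of the 10 genes: H2-Aa, H2-Eb1, H2-DMa, H2-DMb1, H2-DMb2, H2-Oa and H2-Ob. H2-Ab1, Cd74 and Ciita were not matched. The 6 stretches shown here were chosen for a Y box close before the start site. They were aligned on it, with 60 bases before it and 20 after it. Capitals mark the Y box letters ATTGG, the X box core, AAC and TGATG with any 3 bases between them, and, in H2-Aa, the letters TGACGTCA. They lie at chr17:34287847-34287931 (minus strand) for H2-Aa, chr17:34305748-34305832 (plus strand) for H2-Eb1, chr17:34153070-34153154 (plus strand) for H2-DMb1, chr17:34145099-34145183 (plus strand) for H2-DMb2, chr17:34092276-34092360 (plus strand) for H2-Oa and chr17:34238788-34238872 (plus strand) for H2-Ob.
H2-Aa: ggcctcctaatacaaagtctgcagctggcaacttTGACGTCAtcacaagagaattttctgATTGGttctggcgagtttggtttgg
H2-Eb1: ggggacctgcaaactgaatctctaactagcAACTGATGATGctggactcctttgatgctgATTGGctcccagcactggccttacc
H2-DMb1: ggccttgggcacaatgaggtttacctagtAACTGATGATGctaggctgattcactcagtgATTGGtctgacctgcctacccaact
H2-DMb2: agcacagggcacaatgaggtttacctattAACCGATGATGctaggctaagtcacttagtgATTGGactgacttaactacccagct
H2-Oa: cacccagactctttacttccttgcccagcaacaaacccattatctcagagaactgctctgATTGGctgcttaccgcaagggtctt
H2-Ob: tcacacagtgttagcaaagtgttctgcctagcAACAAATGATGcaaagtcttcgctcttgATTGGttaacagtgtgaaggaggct

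ATTGG, searched on both strands, was present in 37.4% of all 32851 windows and in those of all 7 genes. The 6 printed promoters were those with exactly 1 ATTGG on the gene's own strand within a set distance before the start site. Their shared place, 43 to 90 bases before it, therefore follows from that choice and is no finding. In H2-DMa, not printed, ATTGG lay 198 bases before the start of 1 of the 2 windows. The X box core was present, on either strand, in 0.615% of all windows and in those of H2-Eb1, H2-DMb1, H2-DMb2 and H2-Ob, where it began 30, 31, 31 and 28 bases before the Y box. The pair on 1 strand, 20 to 35 bases apart, occurred in 7 windows in all (0.0213%). That core and spacing were chosen after the sequences were read. A longer X box pattern, CCT, any base, G, any 2 bases, AC, any base and G, was found in H2-DMb1 alone of the 7 genes, where it overlaps the core, and in 5% of all windows. TGACGTCA, a palindrome bound by CREB family factors, was in H2-Aa alone of the 7 genes and in 1.79% of all windows. It was not among the patterns planned beforehand, which were ATTGG and the longer X box pattern. These matches describe letters in a window and do not show binding.

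Libraries held 43591245 to 64087660 counts, and 8 RPE markers summed to 26382 to 39545 CPM in ADQ and 30700.0 to 44845 CPM in control. CPM is the usual per-library count scale, here with TMM-scaled library sizes. No RPE marker was called by edgeR, DESeq2 or voom with quality weights, and 0 had an unadjusted p under 0.05. Control 5 stood apart from the other controls and is therefore described first. It had 0 counts of Adipoq, the gene whose promoter drives Cre, against 177 to 402 in controls 1 to 4 and 8 to 77 in ADQ, and a count of 0 allows up to 3 counts by counting error alone. Its T and NK cell markers summed to 55.7 CPM, against 21.1 to 29.9 CPM in controls 1 to 4. It was also the highest control in each of the 10 class II genes, by 1.56 to 3.14 times the mean of the other 4. Leaving control 5 out therefore widens every class II difference by construction, and values without it are a description and no added support. Its Adipoq count goes against the other libraries labelled control, so its label or dissection is in question. Its keratin and corneal markers, however, summed to 712 CPM, within the 103 to 1719 CPM of controls 1 to 4. ADQ libraries had 78.6 to 94.3 CPM. These files cannot tell a wrong label, the dissection and variation between samples apart. Control 5 was kept as labelled, and every control mean and fold change includes it unless stated.

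All 10 genes had a higher mean in ADQ, and 5 of them rose over all genes tested: H2-DMa, H2-DMb1, H2-DMb2, H2-Oa and H2-Ob. The edgeR test, adjusted over 20684 genes and called at an adjusted p of at most 0.05, placed 0.74% of all genes higher in ADQ and 0.087% lower. No class II gene was called lower, and all 10 had an unadjusted p under 0.05 for a higher level. Of all 20684 genes, 2856 had an unadjusted edgeR p under 0.05 in either direction. Such counts in the lists below are to be read beside that share. The median log2 fold change of the 10 was 1.28, against 0.012 for all genes tested. Together the 10 genes took 0.512 to 0.659% of counts in ADQ, against 0.156 to 0.204% in controls 1 to 4 and 0.463% in control 5. In bulk tissue, more cells that make these transcripts and more RNA per cell cannot be told apart.

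**Figure D1:**
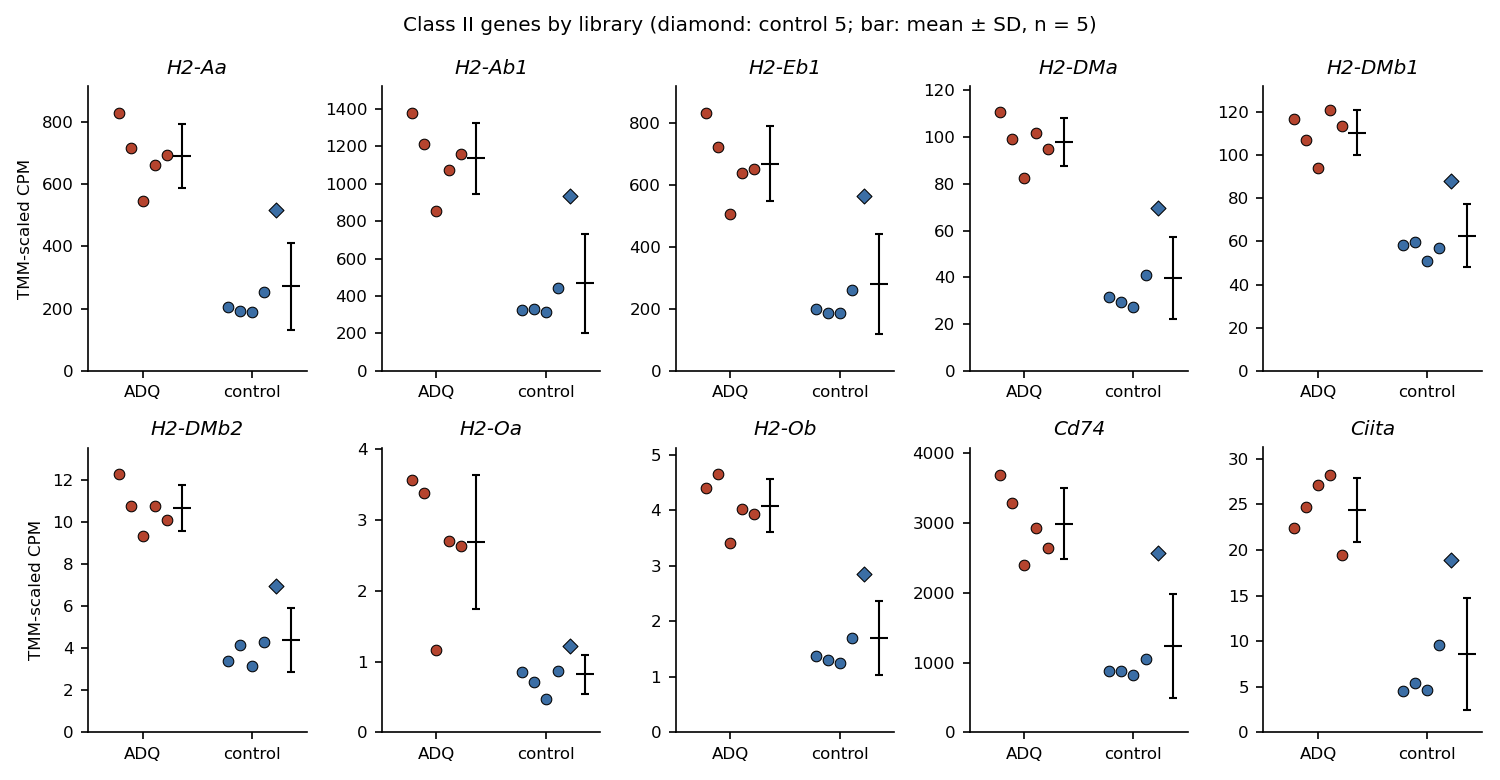
Each panel plots one gene, with TMM-scaled CPM on the vertical axis from 0, ADQ libraries in red and control libraries in blue; the diamond is control 5 and the black bar is the mean ± SD of 5 libraries. Controls 1 to 4 lie below all ADQ libraries in every panel, and control 5 lies above them and below most ADQ libraries.

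The classical chains form the peptide-binding molecules of the cell surface. H2-Aa and H2-Ab1 pair as I-A, and H2-Eb1 is the beta chain of I-E. H2-Aa had 827, 716, 544, 661 and 693 CPM in ADQ 1 to 5, against 205, 191, 190.1, 252 and 517 CPM in controls 1 to 5. The groups did not overlap, although control 5 came close to ADQ 3. H2-Ab1 had 1378, 1212, 857, 1071 and 1159 CPM in ADQ 1 to 5, against 326, 331, 314, 443 and 933 CPM in controls 1 to 5. H2-Eb1 had 833, 722, 506, 639 and 652 CPM in ADQ 1 to 5, against 202, 189, 188, 263 and 566 CPM in controls 1 to 5. In both beta chains control 5 lay above ADQ 3, so the groups overlapped, while controls 1 to 4 stood below every ADQ library. The fold of H2-Aa was 2.54-fold (log2 fold change 1.35, SE 0.28, edgeR adjusted p = 0.0574). For H2-Ab1 the log2 fold change was 1.27 (edgeR adjusted p = 0.102) and for H2-Eb1 1.25 (edgeR adjusted p = 0.121), so none of the 3 chains passed. Without control 5 the log2 fold changes were 1.72 (edgeR adjusted p = 1.96e-05) for H2-Aa, 1.68 (edgeR adjusted p = 5.30e-05) for H2-Ab1 and 1.67 (edgeR adjusted p = 6.00e-05) for H2-Eb1.

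The alpha partner of H2-Eb1 was nearly absent. H2-Ea, which GENCODE M21 annotates as a polymorphic pseudogene and which is known to be disrupted in C57BL/6, had 1 to 5 counts in ADQ libraries and 0 to 4 counts in control libraries, too few to be tested. H2-Eb1 had 26530 to 42105 counts in the same ADQ libraries and 8799 to 27217 in the controls. The beta chain transcript was thus abundant in all 10 libraries with almost none of that of its alpha chain. H2-Eb2, a second E beta gene next to it, was at 1.19 ± 0.312 CPM in ADQ and 0.449 ± 0.266 CPM in control (SD, n = 5 each; log2 fold change 1.41, edgeR adjusted p = 0.113).

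Cd74 encodes the invariant chain, which holds new class II dimers together and plugs their groove until they reach endosomes. Cd74 had 3692, 3287, 2404, 2929.6 and 2644 CPM in ADQ 1 to 5, against 885, 883, 819, 1056 and 2570.0 CPM in controls 1 to 5. Control 5 lay above ADQ 3, and 2.28 to 2.80 Cd74 counts went with each H2-Ab1 count in ADQ, against 2.39 to 2.76 in control. The gene did not pass, at 2.41-fold (log2 fold change 1.27, SE 0.32, edgeR adjusted p = 0.112). Without control 5 its log2 fold change was 1.71 (edgeR adjusted p = 2.70e-05). Cd74 lies apart from the other chains, on chromosome 18, at chr18:60803848-60812652 of GRCm38.

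H2-DM is the exchange catalyst, an alpha chain from H2-DMa paired with a beta chain from H2-DMb1 or H2-DMb2. H2-DMa had 111, 99.1, 82.6, 102 and 94.9 CPM in ADQ 1 to 5, against 31.8, 29.4, 27.3, 40.9 and 69.8 CPM in controls 1 to 5. H2-DMb1 had 117, 107, 93.9, 121 and 114 CPM in ADQ 1 to 5, against 58.4, 59.6, 50.8, 57.0 and 87.9 CPM in controls 1 to 5. H2-DMb2 had 12.3, 10.8, 9.35, 10.8 and 10.1 CPM in ADQ 1 to 5, against 3.39, 4.14, 3.18, 4.29 and 6.98 CPM in controls 1 to 5. In each of the 3 the lowest ADQ library, ADQ 3, lay above control 5. H2-DMb2 rose 2.42-fold (log2 fold change 1.28, SE 0.20, edgeR adjusted p = 0.00756). H2-DMb1 rose less, 1.76-fold (log2 fold change 0.82, SE 0.13, edgeR adjusted p = 0.0110), and H2-DMa rose 2.45-fold (log2 fold change 1.30, SE 0.24, edgeR adjusted p = 0.0332). H2-DMb1 and H2-DMb2 stayed past the threshold without any single library (edgeR adjusted p at most 0.0457 and 0.0335). H2-DMa passed in 1 of the 10 fits that left a library out, the one without control 5, and reached an edgeR adjusted p of up to 0.0959 in the others. Without control 5 its log2 fold change was 1.60 (edgeR adjusted p = 2.06e-05).

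The separate values of both beta chains carry a limit. Of the 50-base stretches of their annotated transcripts, 22.6% of those of H2-DMb1 and 25.9% of those of H2-DMb2 also occur in another gene, mainly each other, and the sources used here do not say how the authors counted such reads. With their counts summed into 1 gene, the log2 fold change was 0.85 (edgeR adjusted p = 0.00950). H2-DMa overlaps Brd2, a chromatin reader gene on the opposite strand, and the strand setting of the counting is not stated either. Brd2 was at 158 ± 6.67 CPM in ADQ and 149 ± 6.04 CPM in control (SD, n = 5 each; edgeR adjusted p = 0.597).

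H2-O, made of H2-Oa and H2-Ob, binds H2-DM and lowers its activity, and it is known mainly from B cells and some dendritic cells. Both genes were rare. H2-Oa had 165, 173, 61, 123 and 170 counts in ADQ 1 to 5, against 37, 36, 24, 40 and 59 counts in controls 1 to 5. That is 3.57, 3.38, 1.16, 2.70 and 2.63 CPM in ADQ 1 to 5, against 0.848, 0.710, 0.468, 0.862 and 1.23 CPM in controls 1 to 5. ADQ 3 lay below control 5, so the groups overlapped, and the other 4 ADQ libraries lay above every control. H2-Ob had 4.39, 4.66, 3.41, 4.02 and 3.93 CPM in ADQ 1 to 5, against 1.37, 1.30, 1.25, 1.70 and 2.85 CPM in controls 1 to 5. Here the groups did not overlap. H2-Oa rose 3.26-fold (log2 fold change 1.71, SE 0.33, edgeR adjusted p = 0.0264) and H2-Ob rose 2.41-fold (log2 fold change 1.27, SE 0.24, edgeR adjusted p = 0.0259). Each passed in 4 of the 10 fits that left out 1 library, with adjusted p up to 0.0912 for H2-Oa and 0.0901 for H2-Ob.

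Ciita is the master co-activator of class II transcription, and its transcripts start from several alternative first exons that gene-level counts do not separate. Ciita had 22.4, 24.7, 27.1, 28.2 and 19.5 CPM in ADQ 1 to 5, against 4.49, 5.37, 4.62, 9.55 and 18.9 CPM in controls 1 to 5. Control 5 came close to ADQ 5, the lowest ADQ library, without overlapping it, and control 4 stood at about 2 times controls 1 to 3. The fold was 2.84-fold (log2 fold change 1.51, SE 0.40, edgeR adjusted p = 0.143), so Ciita did not pass. Without control 5 the log2 fold change was 2.02 (edgeR adjusted p = 3.55e-04). Its gene overlaps Dexi, a neighbouring gene on chromosome 16, which was at 43.1 ± 9.91 CPM in ADQ and 48.0 ± 6.11 CPM in control (SD, n = 5 each). Among ADQ libraries Ciita did not follow the chains: ADQ 3, lowest in H2-Ab1 and Cd74, lay above ADQ 1, 2 and 5 in Ciita, and ADQ 1, highest in both, lay below ADQ 2, 3 and 4.

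**Figure D2:**
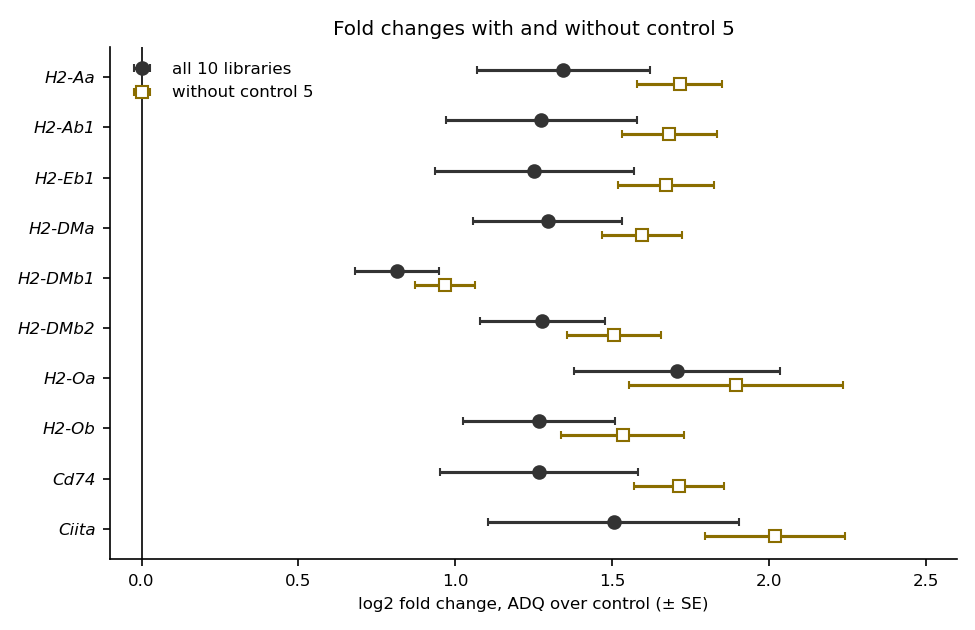
The horizontal axis is the log2 fold change of ADQ over control with its standard error, for each gene fitted with all 10 libraries (filled circles) and without control 5 (open squares). All 10 genes lie above 0 in both fits, H2-DMb1 lowest at 0.82 with all libraries and 0.97 without control 5.

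Groups did not overlap in 6 of the 10 genes (H2-Aa, H2-DMa, H2-DMb1, H2-DMb2, H2-Ob and Ciita), while 2.09% of all genes tested had every ADQ library above every control and 1.07% every one below. Without control 5 all 10 had separate groups and all 10 were called, beside 3.53% separate and 1.5% called of all genes. The number called also depended on the tool: DESeq2 and voom with quality weights each called all 10 with every library kept, while they called 2.19% and 2.47% of all genes higher. In the authors' deposited table all 10 had an adjusted p under 0.05, from 4.17e-04 for H2-DMb2 to 0.00686 for H2-Oa, in a table that lists 3.79% of its genes as higher. The log2 fold changes in the authors' deposited table ran from 0.89 for H2-DMb1 to 1.86 for Ciita.

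Levels between genes were compared per kilobase of exon of the GENCODE basic protein-coding transcripts. In ADQ the order was Cd74 at 2113 ± 361 CPM per kilobase, H2-Ab1 at 937 ± 158, H2-Aa at 610.3 ± 90.5 and H2-Eb1 at 402 ± 71.9 (SD, n = 5). H2-DMb1 followed at 78.6 ± 7.49 CPM per kilobase, H2-DMa at 36.6 ± 3.83 and H2-DMb2 at 6.11 ± 0.626. Lowest were Ciita at 2.96 ± 0.428 CPM per kilobase, H2-Oa at 2.47 ± 0.871 and H2-Ob at 1.16 ± 0.135. The control means had the same order, from 878 ± 528 CPM per kilobase for Cd74 down to 0.483 ± 0.190 for H2-Ob. Neighbours in this order kept their places in all 10 libraries, except Ciita and H2-Oa, whose order held in 2 of 5 ADQ and 3 of 5 control libraries. The place of H2-Aa depends on the length used: over all annotated exons, retained introns included, its ADQ mean was 181 CPM per kilobase, below the 345 of H2-Eb1.

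Ratios of 2 genes within a library asked whether the class II genes differed equally between the groups. Each ratio was compared by an exact two-sided permutation test that ran through the 252 ways to split the libraries and cannot give a p below 0.00794, with p-values adjusted over 12 ratios. The chains of the surface molecules kept close to fixed proportions. H2-Aa had 0.601, 0.591, 0.635, 0.617 and 0.598 times the CPM of H2-Ab1 in ADQ 1 to 5, against 0.629, 0.577, 0.605, 0.569 and 0.554 times in controls 1 to 5. All 10 ratios lay within a narrow band, control 5 included. The log2 ratio of H2-Aa to H2-Ab1 differed by 0.053 between ADQ and control (exact permutation p = 0.198, adjusted p = 0.265). For H2-Eb1 to H2-Ab1 the difference was -0.019 (exact permutation p = 0.476, adjusted p = 0.519), with log2 ratios of -0.76 ± 0.041 in ADQ and -0.74 ± 0.044 in control (SD, n = 5 each). The log2 ratio of Cd74 to H2-Ab1 was 1.40 ± 0.12 in ADQ and 1.39 ± 0.082 in control (SD, n = 5 each; exact permutation p = 0.881, adjusted p = 0.881).

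The exchange chains differed in proportion. H2-DMa had 0.948, 0.927, 0.880, 0.841 and 0.836 times the CPM of H2-DMb1 in ADQ 1 to 5, against 0.545, 0.494, 0.538, 0.717 and 0.795 times in controls 1 to 5. Every ADQ library lay above every control, control 5 being the nearest. The log2 ratio was -0.18 ± 0.082 in ADQ and -0.72 ± 0.30 in control (SD, n = 5 each), a difference of 0.54 (exact permutation p = 0.00794, adjusted p = 0.0317). H2-DMb2 had 0.106, 0.101, 0.0999, 0.0895 and 0.0895 times the CPM of H2-DMb1 in ADQ 1 to 5, against 0.0587, 0.0702, 0.0634, 0.0759 and 0.0799 times in controls 1 to 5. H2-DMb2 to H2-DMb1 differed by 0.49 and H2-Ob to H2-DMb1 by 0.48 on the log2 scale, both with separate groups and the same exact permutation p and adjusted p. These 3 ratios share H2-DMb1, the gene with the smallest fold of the 10, and are therefore not independent of each other. None of the 3 kept an adjusted p of at most 0.05 when any single ADQ library was left out, and the largest adjusted p was 0.0952. In these fits the log2 differences relative to H2-DMb1 were 0.52 to 0.56 for H2-DMa, 0.46 to 0.52 for H2-DMb2 and 0.42 to 0.51 for H2-Ob. H2-Oa to H2-DMa differed by 0.25 (exact permutation p = 0.357, adjusted p = 0.429) and Ciita to H2-Ab1 by 0.33 (exact permutation p = 0.175, adjusted p = 0.262).

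**Figure D3:**
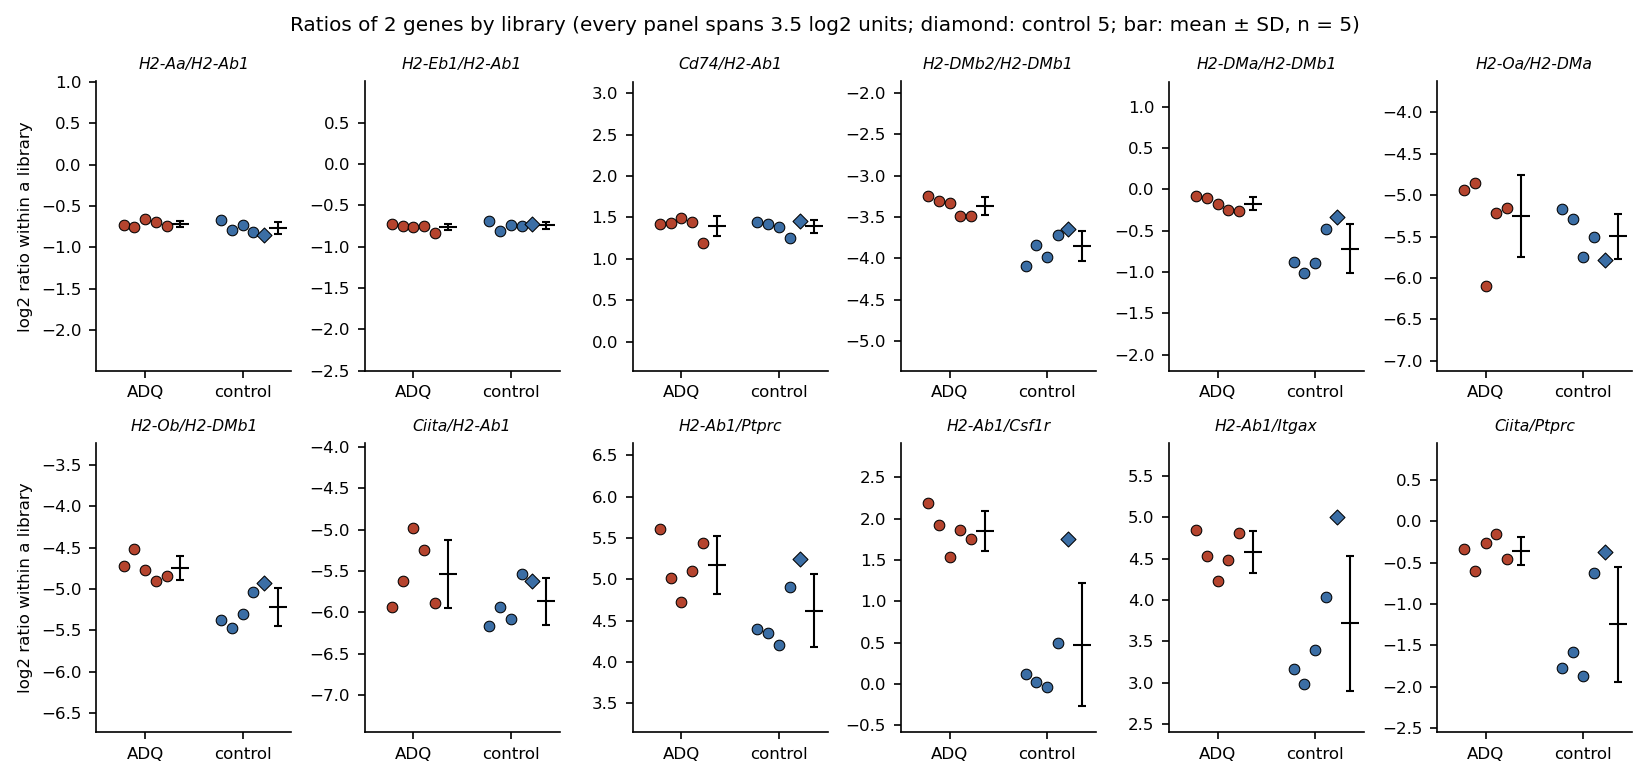
Each panel plots the log2 ratio of the scaled CPM of 2 genes in each library, ADQ in red and control in blue, with control 5 as a diamond and the mean ± SD of 5 libraries as a black bar. The first 3 panels are level between the groups, while H2-DMa, H2-DMb2 and H2-Ob relative to H2-DMb1 are higher in all 5 ADQ libraries than in all 5 controls.

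Class II genes were next set beside genes of leukocytes, cells that can carry class II. H2-Ab1 per Ptprc, the pan-leukocyte phosphatase CD45, was 48.8, 32.3, 26.4, 34.2 and 43.3 in ADQ 1 to 5, against 21.0, 20.4, 18.4, 29.9 and 38.0 in controls 1 to 5. The groups overlapped, with a log2 difference of 0.56 (exact permutation p = 0.0635, adjusted p = 0.122). Ptprc itself rose 1.78-fold (log2 fold change 0.83, SE 0.14, edgeR adjusted p = 0.0139). Relative to Csf1r, the macrophage growth factor receptor, H2-Ab1 differed by 1.38 on the log2 scale (exact permutation p = 0.0238, adjusted p = 0.0714). Csf1r was at 311 ± 21.1 CPM in ADQ and 307 ± 20.1 CPM in control (SD, n = 5 each). Relative to Itgax, an integrin of dendritic cells, the difference was 0.86 (exact permutation p = 0.0714, adjusted p = 0.122), and Ciita relative to Ptprc differed by 0.89 (exact permutation p = 0.0317, adjusted p = 0.0762). None of these 4 ratios passed; without control 5 the ratios to Csf1r and Itgax and that of Ciita to Ptprc had an adjusted p of 0.0159, while that of H2-Ab1 to Ptprc had 0.0544.

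Marker genes of the cell types that can carry class II differed unequally. Of 4 pan-leukocyte markers 2 rose, Ptprc and Cd53, a tetraspanin of blood cells (log2 fold change 0.43, edgeR adjusted p = 0.0341), and the 4 summed to 428 to 553 CPM in ADQ and 326 to 416 CPM in control. The top of that control range was control 5, and controls 1 to 4 had 326 to 387 CPM. All 4 pan-leukocyte markers had a log2 fold change above 0 (median 0.40) and an unadjusted p under 0.05. DESeq2 and voom with quality weights each called 3 of the 4 higher. Of 9 dendritic cell markers 1 rose, Xcr1, the chemokine receptor of cross-presenting dendritic cells, at 3.59 ± 0.680 CPM in ADQ and 0.835 ± 0.446 CPM in control (SD, n = 5 each; log2 fold change 2.10, edgeR adjusted p = 0.0141). Of the 9, 5 had an unadjusted p under 0.05, DESeq2 called 5 higher and voom with quality weights 3; without control 5 edgeR also called Flt3, a growth factor receptor of dendritic cells. The 9 summed to 74.5 to 87.5 CPM in ADQ and 49.1 to 63.8 CPM in control, with control 5 at 52.0 CPM. Control 5 lay above the other controls in Flt3, Xcr1, Clec9a and Ccr7 of this list. It lay below them in Cd209a, at 1.33 CPM against 1.79 to 4.52 CPM. In Zbtb46, Itgax, Batf3 and Siglech it lay within their range, and Itgax made up 29.1 CPM of the sum of control 5. Cd209a was also the 1 marker of the 9 with a log2 fold change below 0 (-0.70, edgeR adjusted p = 0.444). Of 10 macrophage and microglia markers 2 rose, Aif1 (log2 fold change 0.92, edgeR adjusted p = 0.00756) and Adgre1 (0.47, adjusted p = 0.0476), and the sum was 866 to 1131 CPM in ADQ and 871 to 973 CPM in control. Of the 10, 4 had an unadjusted p under 0.05, DESeq2 called 3 higher and voom with quality weights 2; without control 5 edgeR called Aif1 alone. Aif1 was at 38.0 CPM in control 5 and 21.9 to 28.2 CPM in controls 1 to 4. Adgre1 was at 44.0 CPM in control 5, within the 42.8 to 56.7 CPM of controls 1 to 4. Csf1r was at 276 CPM in control 5, below the 298 to 324 CPM of controls 1 to 4. B cell markers were low, with the 7 genes summing to 16.0 to 24.7 CPM in ADQ and 12.5 to 19.4 CPM in control, and none of the 5 tested was called by any of the 3 tools (1 had an unadjusted p under 0.05). The B cell receptor gene Cd79a was at 2.07 ± 0.724 CPM in ADQ and 1.67 ± 0.874 CPM in control (SD, n = 5 each). None of 9 T and NK cell markers was called by edgeR; 7 had an unadjusted p under 0.05, DESeq2 called 1 higher and voom with quality weights 5. Their sum was 54.8 to 76.9 CPM in ADQ and 21.1 to 55.7 CPM in control, and without control 5, edgeR called 6 of 9 higher. The medians of the log2 fold changes were 0.52 for dendritic cells, 0.11 for macrophages and microglia, 0.31 for B cells and 1.45 for T and NK cells. The part of these cells in the class II difference was not tested.

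**Figure D4:**
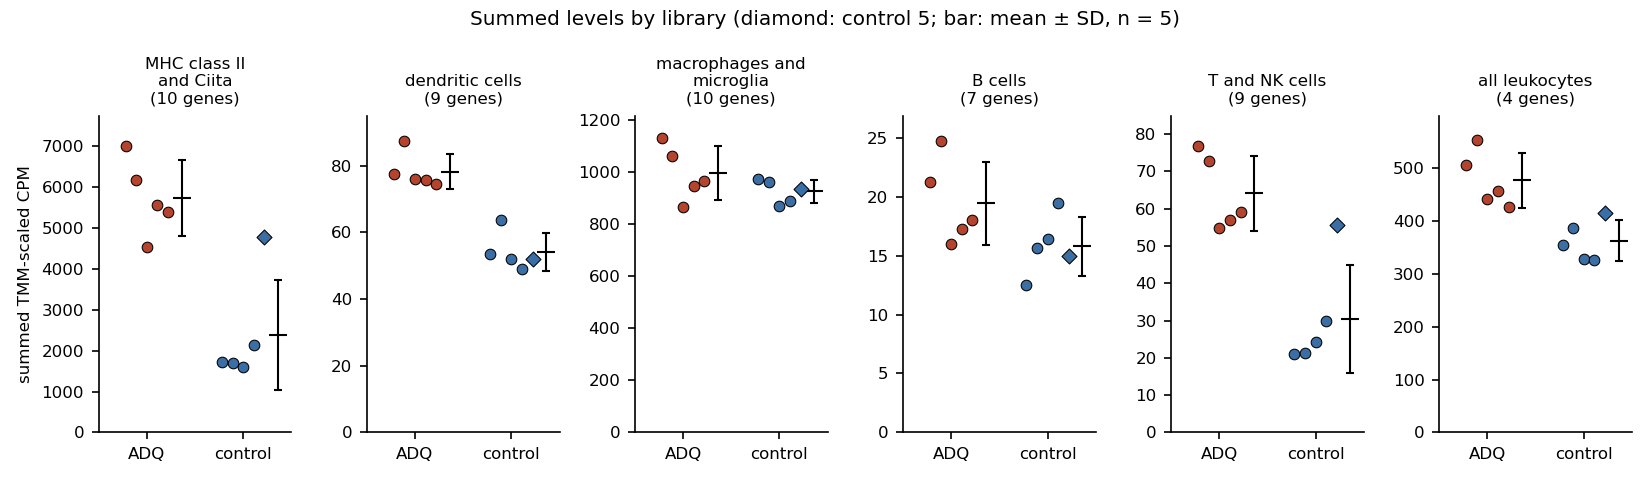
Each panel sums the TMM-scaled CPM of one gene list in each library, ADQ in red and control in blue, with control 5 as a diamond and the mean ± SD of 5 libraries as a black bar. In class II genes and in T and NK cell markers control 5 lies near the ADQ libraries. In the sums of dendritic cell, macrophage and B cell markers it lies among the other controls. Single genes of these lists went both ways: Xcr1 and Aif1 were higher in control 5 than in the other controls, and Cd209a and Csf1r were lower. In the sum of all leukocyte markers control 5 lies above the other controls and below every ADQ library.

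Other tissue carried by the dissection also differed in places. Keratin and corneal markers summed to 78.6 to 94.3 CPM in ADQ and 103 to 1719 CPM in control, and rod markers to 506 to 3720.3 CPM in ADQ and 558 to 2052 CPM in control. Muscle markers summed to 297 to 1622 CPM in ADQ and 975 to 2381 CPM in control, adipocyte markers to 31.6 to 56.3 CPM in ADQ and 29.4 to 192 CPM in control. The low end of the adipocyte sums in control was control 5 alone. Controls 1 to 4 had 92.4 to 192 CPM, above every ADQ library. The median log2 fold change was 1.25 for rod markers, beside 1.28 for the 10 class II genes. All 8 rod markers were above 0, and 0 had an unadjusted p under 0.05. Medians were -5.39 for corneal markers (4 of 4 tested below 0), -0.49 for muscle (5 of 6 below 0) and -1.91 for adipocytes (7 of 7 tested below 0). edgeR called no gene of these 4 lists or of the 5 choroidal endothelial markers; 3 corneal and 5 adipocyte genes had an unadjusted p under 0.05, all lower in ADQ. DESeq2, which adjusted 5 corneal and 8 adipocyte genes, called 4 and 2 lower. Without control 5 edgeR called 6 adipocyte genes lower and still no corneal, rod, muscle or endothelial gene. DESeq2 called no other gene of these lists and voom none. The part of these tissues in the class II values was not tested.

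The route from interferon-gamma to Ciita was read from a list of 11 genes, of which 2 rose and 0 fell, with 11 log2 fold changes above 0 and a median of 0.31. Of the list, 9 had an unadjusted p under 0.05, DESeq2 called 3 higher and voom with quality weights 4. Irf1, an interferon-induced transcription factor that acts on Ciita, rose 2.07-fold (log2 fold change 1.05, SE 0.13, edgeR adjusted p = 0.00195). Irf8, a factor of macrophages and dendritic cells, rose 1.79-fold (log2 fold change 0.84, SE 0.15, edgeR adjusted p = 0.0220). In both the groups did not overlap. Ifng, the ligand, was rare, with 48, 52, 34, 28 and 52 counts in ADQ 1 to 5, against 0, 1, 0, 11 and 21 counts in controls 1 to 5. The groups did not overlap, but Ifng did not pass (log2 fold change 2.55, edgeR adjusted p = 0.192); without control 5 it was called. The receptor chains Ifngr1 and Ifngr2 and the kinases Jak1 and Jak2 had log2 fold changes of 0.22, 0.056, 0.24 and 0.31, none of them past the threshold (edgeR adjusted p of 0.287 or more).

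Factors that sit on the class II promoters were measured next, and edgeR called none of 7 in either direction (median log2 fold change -0.0095). Of the 7, 2 had an unadjusted p under 0.05, DESeq2 called 1 higher and voom with quality weights 1. Rfx5, the DNA-binding subunit of the RFX complex on the X box, was at 5.12 ± 0.805 CPM in ADQ and 3.04 ± 0.920 CPM in control (SD, n = 5 each; log2 fold change 0.75, edgeR adjusted p = 0.141). Its partners Rfxap and Rfxank had log2 fold changes of -0.19 and -0.082 (edgeR adjusted p = 0.323 and 0.766). Creb1 and the Y box subunits Nfya, Nfyb and Nfyc lay between -0.068 and 0.10.

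Of 11 genes of endosomal proteolysis edgeR called 0 in either direction (median log2 fold change 0.15); 5 had an unadjusted p under 0.05, DESeq2 called 1 higher and voom with quality weights 2. Ctss, the cathepsin that trims the invariant chain in antigen-presenting cells, was at 1614 ± 264 CPM in ADQ and 1145 ± 156 CPM in control (SD, n = 5 each; log2 fold change 0.50, edgeR adjusted p = 0.113). Sppl2a, which clears the last membrane stub of the invariant chain, had a log2 fold change of 0.40 (edgeR adjusted p = 0.138), and Lgmn, an endosomal protease, 0.23 (adjusted p = 0.272). Surface turnover genes and partners gave 0 of 7 past the edgeR threshold (median log2 fold change 0.29); 4 had an unadjusted p under 0.05, DESeq2 called 1 higher and voom with quality weights 1. Marchf1, the ubiquitin ligase that removes class II from the surface, was at 5.25 ± 1.04 CPM in ADQ and 3.10 ± 0.871 CPM in control (SD, n = 5 each; log2 fold change 0.76, edgeR adjusted p = 0.128). Cd83, which opposes it, had a log2 fold change of 0.36 (adjusted p = 0.186), and Cd44, a co-receptor of Cd74, 0.29 (adjusted p = 0.209).

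Position along chromosome 17 was examined because 8 of the 10 genes lie in the class II region, from H2-Oa at chr17:34092340-34095234 to H2-Eb1 at chr17:34305867-34316674 (GRCm38, GENCODE M21). Between the H2-DM genes and H2-Ob stand Psmb9, Tap1, Psmb8 and Tap2, immunoproteasome subunits and peptide pumps of the class I pathway. Of 17 other genes of the region 16 were tested and 4 rose, these same 4, with log2 fold changes of 1.27, 1.63, 1.00 and 0.98 (edgeR adjusted p = 0.0217, 0.00614, 0.0277 and 0.00296). Genes of the region without a role in antigen presentation were not called: Brd2, which stands between H2-Oa and the H2-DM genes, had a log2 fold change of 0.087, and Rxrb, Ring1 and Col11a2 had -0.19, -0.20 and -0.17. The median over the 16 was -0.043, with 8 above 0 and 8 below, and without control 5 H2-Eb2 was called as well. Of the 16, 7 had an unadjusted p under 0.05, and DESeq2 and voom with quality weights each called 5 higher.

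**Figure D5:**
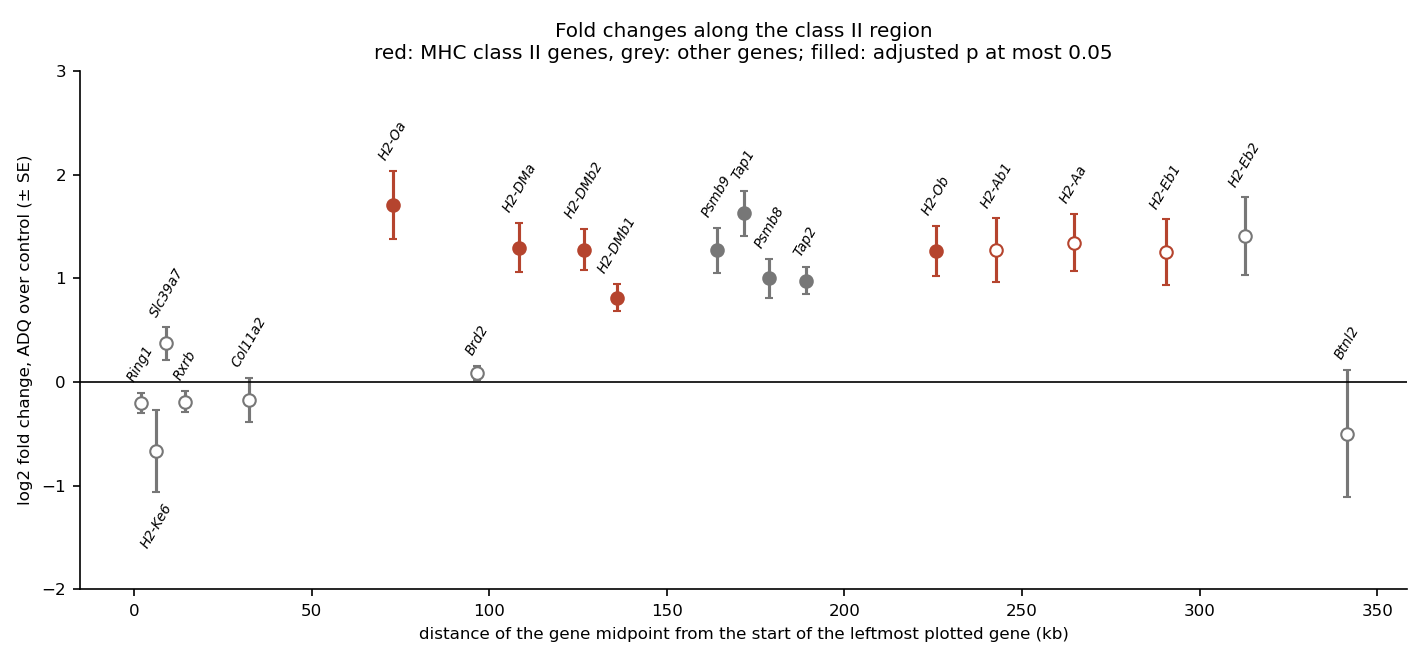
The horizontal axis is the distance in kilobases of each gene's midpoint along the class II region of chromosome 17, and the vertical axis the log2 fold change of ADQ over control with its standard error; red marks class II genes, grey other genes, and filled points an adjusted p of at most 0.05. Notch4, Ager, Pbx2 and Gpsm3, tested and not called, lie farther out and are not drawn. Brd2, at 0.087, lies near 0 between genes at 1.71 and 1.30.

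Likeness within the groups was measured as Pearson's r of log2 CPM over 10 libraries after each group's mean was subtracted, a description in which control 5 weighs heavily. With H2-Ab1, r was 0.996 for H2-Aa, 0.997 for H2-Eb1, 0.980 for Cd74 and 0.838 for Ciita. Without control 5 and control 3, the libraries farthest from the median in H2-Ab1, these became 0.986, 0.987, 0.915 and 0.388, so the likeness of Ciita to H2-Ab1 rested on those libraries. H2-DMb1 went likewise, at 0.895 and 0.570. Of 13736 other protein-coding genes averaging 1 CPM or more, those most like H2-Ab1 were Serpina3g (r = 0.987, rho = 0.988, r = 0.954 without the same 2 libraries), Cxcl9 (r = 0.981, rho = 0.964, r = 0.931 without the same 2 libraries), Pidd1 (r = 0.979, rho = 0.927, r = 0.991 without the same 2 libraries), Chil3 (r = 0.976, rho = 0.927, r = 0.905 without the same 2 libraries) and Psmb9 (r = 0.960, rho = 0.830, r = 0.858 without the same 2 libraries). Those most like Ciita were Tgtp1 (0.985), Iigp1 (0.970), Igtp (0.959), Tgtp2 (0.958) and Gm4070 (0.955), all of which had r from 0.874 to 0.958 without control 5 and control 1 and rho from 0.855 to 1.00. Of these, Tgtp1, Tgtp2, Iigp1 and Igtp are interferon-inducible GTPases, a family whose close copies can share reads.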

How the data were processed

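RNA was taken in TRIzol, purified on NucleoSpin columns and amplified as cDNA by SMARTer, per the labels' protocols. The submitters' processing notes name GRCm38, bcl2fastq, DRAGEN, edgeR and limma, without versions or roles; how reads were assigned and on which strand is not given in the sources used here. Counts per gene and library were deposited as whole numbers, not normalized, in a table from which 287 repeated gene rows were dropped. The authors' deposited comparison table holds log2 CPM, log2 fold changes and p-values; its log2 CPM equal those of the counts plus 0.5 up to 1 constant per library.

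Counts were filtered with filterByExpr (minimum count 10, total 15), scaled by TMM and tested with edgeR 4.0.16 (robust quasi-likelihood, group as the single term; limma 3.58.1, DESeq2 1.42.0, R 4.3.3), with Benjamini-Hochberg adjustment over 20684 genes. Fold changes are ADQ over control; standard errors were taken from F, as the absolute log2 fold change divided by its square root. Log2 ratios used a prior count of 2. No 2 libraries agreed within sampling noise (smallest chi-square 33.9 per degree of freedom over genes with at least 500 counts). Exon lengths, overlaps and positions come from GENCODE M21 (GRCm38), the files' build, and promoters from RefSeq (GRCm38.p6). Named were the 10 genes, list members that passed or up to 3 with the smallest p, and the 5 genes most like H2-Ab1 and Ciita; other genes named beside them, such as markers and neighbours, were chosen after their values were seen. The genes, lists and tests were chosen with earlier results of these data known. One listed gene is not reported here and was left out of the counts.

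Alternatives were RLE, upper quartile and no scaling, other count filters, a non-robust fit, DESeq2, voom with quality weights, a fit with the replicate number as block, fits without each library, and H2-DMb1 with H2-DMb2 summed. Amplified reads without molecular identifiers are not independent molecules, so counting limits cover counting error only.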

Additional observations from a re-analysis of the deposited data

Results flagged for a closer look

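Each gene and ratio was searched in each group for a library far outside the spread of the other 4: 8 of 44 such searches found one, where chance gives about 1 in 20. Control 5 was the highest control in all 10 genes and was found by this search in 6 of them. It had 517 CPM of H2-Aa (others 190.1 to 252), 933 CPM of H2-Ab1 (others 314 to 443) and 566 CPM of H2-Eb1 (others 188 to 263). It also had 2570.0 CPM of Cd74 (others 819 to 1056), 87.9 CPM of H2-DMb1 (others 50.8 to 59.6) and 2.85 CPM of H2-Ob (others 1.25 to 1.70). These 6 are not independent, since the genes vary together. ADQ 5 had a low log2 ratio of Cd74 to H2-Ab1, at 1.19 (other ADQ libraries 1.42 to 1.49). ADQ 3 had a low log2 ratio of H2-Oa to H2-DMa, at -6.10 (others -5.21 to -4.86), with 61 counts of H2-Oa.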

How the results depend on the processing

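The log2 fold changes of all 10 genes stayed above 0 under every alternative run, and no gene was called lower. The number called higher, 5, was 10 with DESeq2 and 10 with voom and quality weights, and 6 with library size alone, with a stricter filter or with a non-robust fit. It was 5 with RLE or upper quartile scaling and 4 without a count filter, and 4 of 9 with H2-DMb1 and H2-DMb2 summed. Leaving out 1 library gave 2 to 10 genes: 10 without control 5, 2 without ADQ 1, ADQ 2, ADQ 4, control 1, control 2 or control 4, and 4 otherwise. H2-DMb1 and H2-DMb2 were called in each of these fits. Of 12 ratios 3 passed; leaving out 1 library gave 0 to 6, with 0 without any single ADQ library, 3 without control 1, 2, 3 or 4, and 6 without control 5. The difference in the log2 ratio of Cd74 to H2-Ab1, 0.00685, changed sign without ADQ 2 (-0.00344), ADQ 3 (-0.0157), ADQ 4 (-0.00645) or control 4 (-0.0274), and reached 0.0590 without ADQ 5. With the replicate number as a block 5 of the 10 were called, and over all genes 392 higher and 302 lower, against 153 and 18. The labels do not say whether equal numbers mark pairs. Deviations of same-numbered libraries had r from -0.113 to 0.163 across genes, which cannot settle it. The main fit treated the libraries as unpaired. The causes of these changes were not tested. H2-Oa had the fewest counts of the 10 genes, 24 to 173 a library.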

Other observations

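Of the 5 genes whose levels followed H2-Ab1 most closely within the groups, Psmb9 passed the edgeR threshold between the groups and the other 4 did not. Pidd1, a p53-induced death domain protein, was at 1.55 ± 0.324 CPM in ADQ and 1.33 ± 0.822 CPM in control (SD, n = 5 each; edgeR adjusted p = 0.799). Chil3, a chitinase-like protein secreted by macrophages, was at 10.1 ± 3.42 CPM in ADQ and 8.89 ± 9.60 CPM in control (SD, n = 5 each; edgeR adjusted p = 0.911). Cxcl9, a T cell chemokine induced by interferon-gamma, was at 48.7 ± 17.4 CPM in ADQ and 6.93 ± 10.5 CPM in control (SD, n = 5 each; edgeR adjusted p = 0.230). Serpina3g, an inhibitor of intracellular proteases, was at 15.4 ± 4.38 CPM in ADQ and 5.81 ± 4.65 CPM in control (SD, n = 5 each; edgeR adjusted p = 0.209).

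The X core followed by a Y box on 1 strand, the layout of H2-Eb1, H2-DMb1, H2-DMb2 and H2-Ob, was also found in the promoter windows of Aptx, Cic and 1700048F04Rik, which are not class II genes. The search letters were chosen after the class II promoters had been read, so the count of class II genes among these windows is a description.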
